A study of Mus musculus with 59 samples.

Results

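The linker and variant histone genes H1f2, H1f10, H2ax, H2az1, Macroh2a1 and Macroh2a2 were followed through 59 arrays of mouse brain after prenatal exposure to valproic acid. These 6 genes were taken from 18194 genes with at least 1 probe set that carries a single gene symbol, and 9 of the 45101 probe sets on the array name a member in that way. Each gene was read from its brightest probe set, and the other probe sets are given beside it where they bear on a result. The genes were chosen by their E14.5 signals (VPA and VPM against vehicle), so their E14.5 values are given as a description and without a test, and tests are given for the later ages.

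Pregnant C57BL/6 mice were dosed by mouth once a day at E12.5, E13.5 and E14.5. The vehicle was 0.5% (w/v) methylcellulose (MC), and the drugs were 300 mg/kg valproic acid (VPA), an anti-epileptic that also inhibits histone deacetylases, or 300 mg/kg valpromide (VPM), the amide of valproic acid, which lacks that inhibitory activity. The 19 groups held telencephalon at E14.5, taken 3 h after the last dose, and hippocampus and forebrain at E18.5, each with MC, VPA and VPM (3 arrays per group). They also held adult hippocampus and cortex of MC and VPA offspring with or without a running wheel (RW) in the cage from weaning (3 arrays per group), and hippocampus of MC and VPA offspring at P84 (4 arrays per group). Every offspring was thus exposed through its mother, the controls to MC. The labels call the arrays biological replicates but name no litter, so p-values measure the spread between these arrays, some of which may share a litter.

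Histone H1 proteins bind the linker DNA between nucleosomes and help chromatin fold, and H1f2 and H1f10 encode 2 of them. The core variants replace ordinary H2A in the nucleosome: H2AX (H2ax) is phosphorylated around DNA breaks, H2A.Z (H2az1) marks promoters and enhancers and is exchanged by SRCAP and EP400 complexes, and macroH2A (Macroh2a1, Macroh2a2) carries a large extra domain and is associated with repressed chromatin. Most histone messages are made in S phase and end in a stem-loop in place of a poly(A) tail. All or part of the output of the variant genes, and part of that of H1f2, is polyadenylated. The arrays were labelled from an oligo(dT) primer, so they read the polyadenylated part.

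The promoters of the 3 genes that differed most between VPA and MC at E14.5 are shown, to set the linker gene of the histone cluster beside the others. Each sequence is the 250 bases before the RefSeq start of the gene in GRCm38.p6, written 5′ to 3′ along the gene. Capitals mark 4 motifs searched on both strands. They are AAACACA (the H1 box of linker histone promoters), the CCAAT box, and the TATA box in the spelling TATAAA or in the spelling TATATA, which is its own reverse complement.
H1f2 (chr13:23738557-23738806, + strand): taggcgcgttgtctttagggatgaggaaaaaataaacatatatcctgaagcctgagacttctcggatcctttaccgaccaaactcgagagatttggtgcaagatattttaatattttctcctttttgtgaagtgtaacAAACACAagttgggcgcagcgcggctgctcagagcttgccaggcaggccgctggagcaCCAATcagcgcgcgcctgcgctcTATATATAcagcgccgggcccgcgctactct
H1f10 (chr6:87981483-87981732, - strand): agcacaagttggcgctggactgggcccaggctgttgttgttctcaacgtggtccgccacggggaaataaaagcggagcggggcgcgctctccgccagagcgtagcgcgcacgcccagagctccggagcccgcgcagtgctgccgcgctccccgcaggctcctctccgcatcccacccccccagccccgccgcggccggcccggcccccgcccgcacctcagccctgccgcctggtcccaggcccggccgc
Macroh2a2 (chr10:61783865-61784114, - strand): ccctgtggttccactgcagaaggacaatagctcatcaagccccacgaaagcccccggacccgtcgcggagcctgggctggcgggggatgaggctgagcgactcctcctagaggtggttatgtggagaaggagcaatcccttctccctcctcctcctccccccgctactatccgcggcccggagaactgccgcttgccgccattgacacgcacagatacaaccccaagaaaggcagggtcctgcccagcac
The H1f2 window held AAACACA beginning 112 bases upstream of the start, CCAAT beginning 54 bases upstream, and overlapping TATATA matches beginning 31 and 29 bases upstream. None of the motifs was found in the H1f10 or Macroh2a2 windows. Among the 32851 promoter windows of this length, 6.25% held AAACACA, 33.8% held CCAAT, 12.4% held TATAAA and 5.25% held TATATA. G and C made up 50.4% of the H1f2 window, 75.2% of the H1f10 window and 63.2% of the Macroh2a2 window. A window was found for 5 of the 6 genes, all except H2ax; those of H2az1 and Macroh2a1 are not printed. Of these, the H2az1 window held CCAAT beginning 80 bases upstream on the gene's strand and 23 bases upstream on the other, and the Macroh2a1 window held no motif.

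All values below are scaled signals, after each array was brought to a trimmed mean of 500, and differences are on the log2 scale. Before scaling, the trimmed means ran from 198 to 419, and the correlation between arrays of the same group lay between 0.978 and 0.995. All 59 arrays read the probe sets used at 259 or more, above the filter of 100, so no member was lost to it. Choroid plexus markers (Ttr, Kl, Folr1, Clic6, Kcnj13, Otx2, Cldn2) varied between arrays, and the cause was not tested. Their summed signal was 265 to 424 in the MC and VPA arrays at E14.5, but reached 20230 in VPM replicate 3. The summed signal of 6 hippocampal markers in the MC arrays was 7366 to 8031 in adult hippocampus and 1371 to 1564 in adult cortex, and that of 5 cortical markers 3775 to 4592 and 9389 to 9853. At E18.5 the hippocampal sum was 5211 to 6983 in hippocampus and 2080 to 2687 in forebrain, while the cortical sums lay closer, 4901 to 5669 and 5735 to 6695. Single markers differed from these sums: Fezf2 of the cortical list was higher in hippocampus (medians of 736 against 336 in adults and 2142 against 1192 at E18.5), and Dsp of the hippocampal list had the lower median in hippocampus at E18.5 (45.3 against 75.8). The proliferation list (23 measured genes) had a sum of 74152 to 75166 in E14.5 MC and 6216 to 6520 in adult cortex MC.

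At 3 h after the last dose, the linker histone gene H1f2 differed most among the members. In E14.5 telencephalon its scaled signal was 1409, 1545 and 1221 in the MC arrays, 6465, 5395 and 6664 in the VPA arrays and 821, 818 and 764 in the VPM arrays. The groups did not overlap: VPA stood above and VPM below every MC array. The log2 difference from MC was 2.15 with VPA, a 4.44-fold higher signal, and -0.79 with VPM, while VPA and VPM differed by 2.94. A second H1f2 probe set gave means of 273 ± 23.6 in MC, 1188 ± 203 in VPA and 144 ± 38.3 in VPM (SD, n = 3 each), or differences of 2.11 and -0.95 from MC. Another probe set, the dimmest, stayed at 35 to 87 in the E14.5 arrays, near the floor of 32, and was not used.

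H1f10, the gene of a divergent, replication-independent linker histone, lay in the same order by smaller steps. Its scaled signal was 4133, 4434 and 4062 in MC, 5963, 6484 and 5880 in VPA and 3345, 3256 and 3655 in VPM. Every VPA array was above and every VPM array below the MC arrays. The differences from MC were 0.54 with VPA and -0.30 with VPM.

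Among the H2A variants, H2ax showed the same order, and H2az1 overlapped MC with VPA. H2ax was read at 8426, 8495 and 8353 in MC, 8889, 9232 and 9703 in VPA and 6578, 6931 and 6322 in VPM, without overlap between groups, and differed from MC by 0.14 and -0.35. H2az1 was read at 12455, 12110 and 11725 in MC, 11888, 14164 and 11186 in VPA and 10992, 11630 and 10198 in VPM. The VPA arrays of H2az1 spanned the MC arrays (0.03) and its VPM arrays lay just below them (-0.15). The second H2az1 probe set, of a type whose probes can match other sequences, had means of 7132 ± 929, 5313 ± 900 and 5903 ± 1179 (SD, n = 3 each), a difference of -0.43 from MC with VPA, so the H2az1 probe sets disagree there.

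Of the macroH2A genes, Macroh2a1 overlapped MC with VPA and Macroh2a2 did not. Macroh2a1 was read at 6202, 6383 and 5998 in MC, 5741, 6702 and 6253 in VPA and 5455, 5751 and 5724 in VPM, differences of 0.01 and -0.13. Macroh2a2 was read at 2617, 2312 and 2587 in MC, 1001, 1043 and 1450 in VPA and 2718, 2491 and 2192 in VPM. All 3 VPA arrays of Macroh2a2 lay below every MC and VPM array, a 2.18-fold lower signal than MC (-1.12), whereas VPM overlapped MC (-0.03). The Macroh2a2 probe set is of the type whose probes can match other sequences, and no second probe set carries that symbol alone.

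Counted over the members, VPA and MC arrays did not overlap in 4 of 6 genes (3 higher, 1 lower), where 60.2% of all genes tested did not overlap (30.3% higher, 30% lower). VPM lay below MC without overlap in 5 of 6 genes, against 17.6% of all genes in that direction, 15.1% in the other and 32.8% in either. VPA and VPM did not overlap in 4 of 6 genes (3 higher with VPA, 1 lower), against 60.7% of all genes (30.7% higher, 30% lower). The median log2 difference of the members was 0.08 for VPA and -0.22 for VPM from MC, beside medians of all genes of -0.00 and -0.01. These contrasts chose the genes, so the counts describe the choice. VPA and VPM were set against the same MC arrays.

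**Figure D1:**
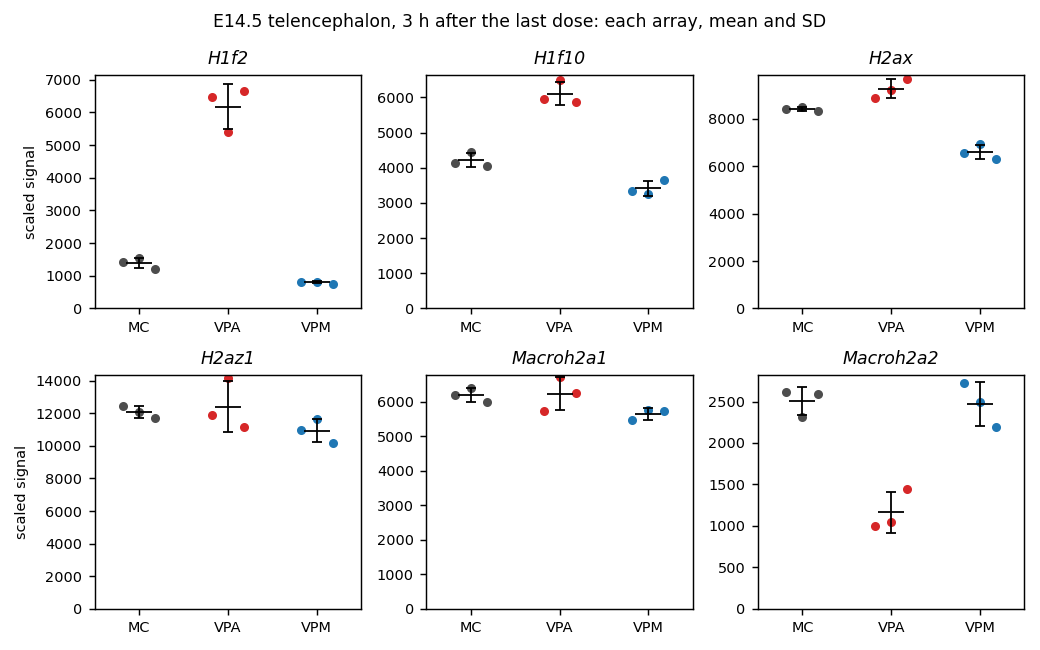
Scaled signal of the 6 genes in E14.5 telencephalon (vertical axes from 0) for the MC, VPA and VPM arrays. Points are arrays and bars give the mean and SD of 3. H1f2 lies between 5395 and 6664 with VPA, above all other arrays, and Macroh2a2 between 1001 and 1450 with VPA, below all other arrays.

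Markers of cell state moved in the same arrays. The sum of the proliferation list was 55769 to 60739 with VPA and 55705 to 62790 with VPM, below MC in every array, and the sum of 9 progenitor markers was 58092 to 62381 in MC, 47334 to 49169 in VPA and 48607 to 51309 in VPM. The sum of 5 measured red cell markers was 10915 to 12863 in MC, 6544 to 9945 in VPA and 2554 to 3179 in VPM. That sum was mostly embryonic globin Hbb-y (medians of 10611, 6743 and 1757), whereas Alas2, which encodes an enzyme of heme synthesis, lay in the other order (medians of 262, 354 and 595). Their part in the differences of the members was not tested. In dissected tissue, fewer cells of a type and less RNA per cell cannot be told apart. Without VPM replicate 3, the array with choroid plexus signal, H1f2 differed from MC by -0.76 with VPM, H1f10 by -0.35 and H2ax by -0.32.

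The genes that handle these histones were tested at E14.5 by limma, with Benjamini-Hochberg adjustment over the 11068 genes measured. Among all genes, 53.8% were called for VPA against MC (27% higher, 26.8% lower), 11.6% for VPM against MC (5.65% higher, 5.91% lower) and 54.5% for VPA against VPM (27.5% higher, 27% lower). Without rescaling the share of VPM calls that were higher was 34.8%, against 48.9% with it. Of 14 genes of H2A.Z exchange and removal, 12 fell and 0 rose with VPA, with a median log2 change of -0.69. They included Epc1 (-0.89, adjusted p = 2.77e-07) and Yeats4 (-0.90, adjusted p = 5.49e-07), subunits of the TIP60 acetyltransferase complex, and Srcap (-1.11, adjusted p = 3.98e-06), the motor of the complex that inserts H2A.Z. With VPM, 1 of the 14 fell, Actl6a (-0.42, adjusted p = 0.00936), and the median change was -0.03.

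Of 16 measured genes of the H2AX list (kinases, phosphatases and readers of the phosphorylated form), 6 fell and 2 rose with VPA. Nbn, a subunit of the break-binding MRN complex, fell by 1.63 (adjusted p = 9.52e-06). Wrap53 rose by 0.54 (adjusted p = 0.000181), and Eya1, which encodes an H2AX tyrosine phosphatase, fell by 0.67 (adjusted p = 0.00176). Of 12 genes of macroH2A and H3.3 deposition and repression, 3 fell and 1 rose with VPA: the insulator protein gene Ctcf (-1.15, adjusted p = 2.75e-07), the chromatin remodeller gene Atrx (-0.41, adjusted p = 0.000136) and Hira, an H3.3 chaperone gene, fell, and Apbb2 (0.40, adjusted p = 0.00523) rose.

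Of 10 measured replication chaperone genes, 2 rose and 2 fell with VPA. Chaf1b, a subunit of the chromatin assembly factor CAF-1, rose by 1.00 (adjusted p = 1.38e-06), Asf1b rose by 0.82 (adjusted p = 8e-06), and Nasp, a carrier of H3-H4 and linker histones, fell by 0.44 (adjusted p = 0.000125). With VPM, 4 of the 10 fell and 0 rose, Asf1b by 0.53 (adjusted p = 0.00286) and Chaf1b by 0.32 (adjusted p = 0.0216) among them. Of 10 genes of cluster histone transcription and 3′ end processing, 4 rose and 3 fell with VPA. Slbp, which binds the stem-loop of histone messages, rose by 0.40 with VPA (adjusted p = 0.000287) and fell by 0.29 with VPM (adjusted p = 0.0154).

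Among 4 measured core variants outside the members, Cenpa, the centromeric H3 variant, fell with VPA (-0.85, adjusted p = 1.94e-05), and H2aj (0.60, adjusted p = 0.000155) and H3f3b, a gene of the H3.3 variant (0.51, adjusted p = 0.0302), rose. H2az2, the second H2A.Z gene, changed by 0.01 and did not pass. With VPM, Cenpa fell (-0.38, adjusted p = 0.024). Of 4 measured cluster histone genes, H2bc21 rose with VPA (0.27, adjusted p = 0.0216) and fell with VPM (-0.49, adjusted p = 0.00575); the other linker histone genes of the list were not among the genes tested.

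At E18.5, 4 days after the last dose, Macroh2a1 in forebrain was the single member called in the 6 drug comparisons. The member differences ran from -0.55 (VPM against MC, forebrain) to 0.44 (VPA against VPM, hippocampus), both for H1f2. Macroh2a1 was read at 3622, 3738 and 3708 in MC forebrain, 3190, 3058 and 3192 with VPA and 3631, 3356 and 3482 with VPM. All VPA arrays lay below all MC arrays. It fell by 0.23 (95% interval -0.33 to -0.13, limma adjusted p = 0.0262), 1 of 6 members, where 2.16% of all genes tested were called (1.09% higher, 1.06% lower). Higher were 126 of those 248 calls, but 1 of 17 without rescaling. The call was lost without rescaling (adjusted p = 1.00), with no filter (adjusted p = 0.058), without the variance trend (adjusted p = 0.0688), and without any 1 of MC replicates 1, 2 and 3 or VPA replicates 1 and 2 (adjusted p from 0.0621 to 0.0991), while the change stayed between -0.24 and -0.21 in the alternatives run.

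In E18.5 hippocampus Macroh2a1 was read at 4274, 4214 and 3974 in MC and at 3812, 3522 and 3633 with VPA, again without overlap. The difference of -0.18 did not pass (95% interval -0.30 to -0.06, limma adjusted p = 0.228), and the VPA differences in hippocampus and forebrain were 0.05 apart (95% interval -0.10 to 0.19, limma adjusted p = 0.873). Other signals moved with VPA in forebrain. The sum of 7 choroid plexus markers was 17740 to 25245 in MC, 509 to 4850 in VPA and 20130 to 23864 in VPM. Between 2 and 3 of the 7 lay under the floor in each VPA array, with Otx2 at 6.63 to 15.0. The proliferation sum was 28240 to 29126 in MC and 23611 to 25140 in VPA. Their part in the Macroh2a1 change was not tested. In hippocampus the choroid plexus sum was 1661 to 29019 in MC and 22318 to 26542 in VPA, so there the groups overlapped.

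H1f2 lay in different directions in the E18.5 regions. In hippocampus it was read at 848, 1152 and 1143 in MC, 1567, 1243 and 1366 with VPA and 1053, 1088 and 927 with VPM. The VPA arrays were all higher than the MC and VPM arrays, but neither difference passed (0.42 from MC, limma adjusted p = 0.228; 0.44 from VPM, limma adjusted p = 0.165). In forebrain it was read at 1283, 1319 and 1515 in MC, 1136, 1237 and 1188 with VPA and 940, 978 and 894 with VPM, 3 groups that did not overlap. The VPM difference of -0.55 (95% interval -0.70 to -0.39) had the smallest p of the 11507 genes tested, yet its limma adjusted p was 0.0767; without MC replicate 1 it was 0.0431. The VPA difference in forebrain was -0.21 (limma adjusted p = 0.167), and VPA exceeded VPM by 0.34 (limma adjusted p = 0.0611). The second H1f2 probe set gave 0.40 with VPA in hippocampus and -0.35 with VPA and -0.60 with VPM in forebrain. The hippocampal and forebrain differences were 0.62 apart for VPA (95% interval 0.30 to 0.95, limma adjusted p = 0.397) and 0.52 for VPM (95% interval 0.20 to 0.85, limma adjusted p = 0.595), so a regional difference did not pass.

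In hippocampus 0 of 6 members were called by limma for VPA against MC, where 0% of all genes were called. At an unadjusted p under 0.05 were 2 of 6, beside 1507 of 11540 genes. For VPM against MC 0 were called (0 unadjusted), where 0.00867% of all genes were called and 1191 had an unadjusted p under 0.05. For VPA against VPM 0 were called (2 unadjusted), where 0% of all genes were called and 1717 had an unadjusted p under 0.05. Without overlap lay 2 members for VPA against MC in hippocampus (1 higher, 1 lower), where 17.8% of all genes did not overlap (7.49% higher, 10.3% lower). The same held for 1 member for VPM against MC, H2az1 (0.15, limma adjusted p = 0.504), beside 15.5% of all genes (6.5% higher, 8.99% lower), and for 4 for VPA against VPM, beside 22.1%. In forebrain 0 were called for VPM against MC (3 unadjusted), against 0% of all genes, and 0 for VPA against VPM (2 unadjusted), against 0.53%. Of 11507 genes tested in forebrain, 626 and 1432 had an unadjusted p under 0.05 in these comparisons. There the arrays did not overlap in 2 members for VPA against MC, both lower, beside 22.3% of all genes, in 3 for VPM against MC, all lower, beside 11.4% (5.75% higher, 5.69% lower), and in 2 for VPA against VPM, beside 17.1%. H2ax differed from MC by 0.01 with VPA in forebrain (95% interval -0.11 to 0.12) and by -0.11 in hippocampus (95% interval -0.26 to 0.04). H1f10, for which VPA exceeded MC by 0.54 at E14.5, differed by -0.09 in hippocampus and -0.04 in forebrain. Macroh2a2 was 2155, 2532 and 2003 with VPA against 2281, 2603 and 2465 with MC in forebrain, groups that overlapped (-0.14, 95% interval -0.34 to 0.06, limma adjusted p = 0.479). With VPM it was 1861, 2182 and 2132 there, below every MC array, and did not pass (-0.25, 95% interval -0.45 to -0.06, limma adjusted p = 0.897). H1f10 in forebrain was 2090, 1993 and 2122 with MC and 1957, 1811 and 1733 with VPM, also without overlap (-0.18, 95% interval -0.31 to -0.04, limma adjusted p = 0.897).

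Of the related genes at E18.5, 2 of 4 measured core variants fell with VPA in forebrain by limma, H2az2 (-0.28, adjusted p = 0.0136) and Cenpa (-0.50, adjusted p = 0.0183). None of the 14 H2A.Z exchange genes was called there, with a median change of -0.03, and Lsm11 of histone message processing rose (0.32, adjusted p = 0.0447). In the proliferation list 8 of 21 measured genes fell and 0 rose. Of all genes, 1.06% fell and 1.09% rose in that comparison.

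**Figure D2:**
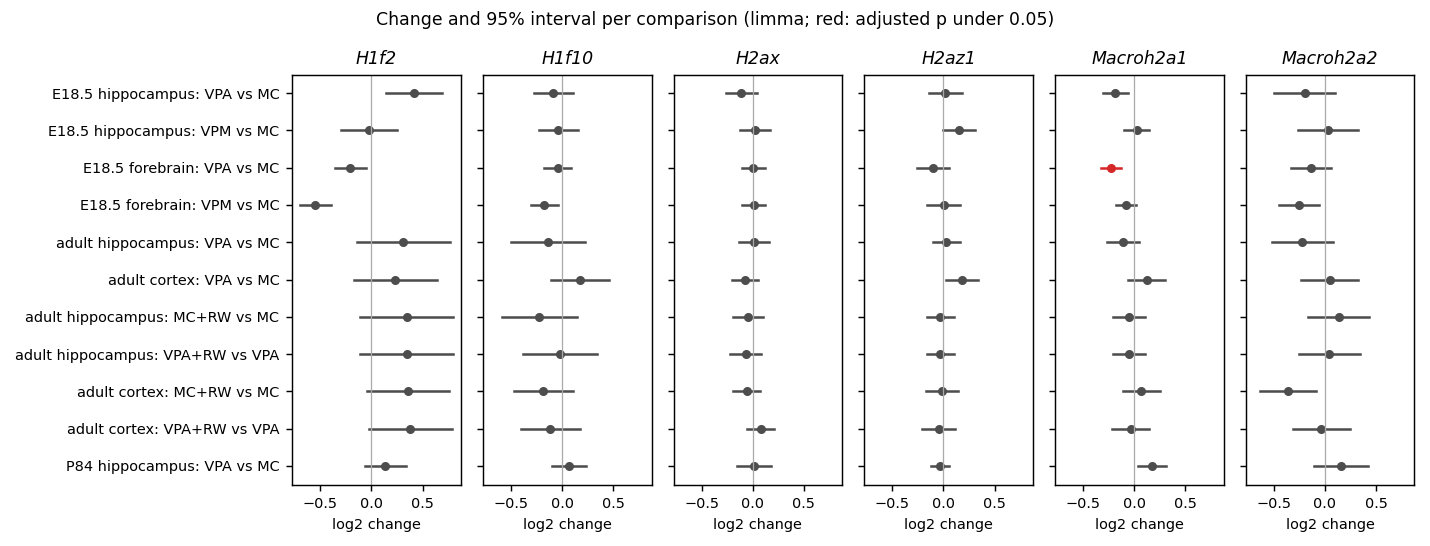
Log2 change of the 6 genes (horizontal axes) with its 95% interval in 11 comparisons at E18.5, in adults and at P84; red marks an adjusted p under 0.05. Macroh2a1 with VPA in E18.5 forebrain is the single red point, at -0.23, and H1f2 with VPM in E18.5 forebrain lies at -0.55.

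In adult offspring at 12 to 13 weeks and at P84, 0 of the 54 member tests in 9 comparisons were called by limma. The adjusted p ran from 0.268 to 1.00, and 5 tests had an unadjusted p under 0.05. Per comparison, 568 to 1478 of 13466 genes had such a p in adult hippocampus and 859 to 1835 of 13606 in adult cortex. At P84 it was 645 of 13036 genes. The share of all genes called was 0% in the 4 comparisons of adult hippocampus, in VPA+RW against VPA of adult cortex and at P84. It was 0.00735% for VPA against MC, 0.0147% for MC+RW against MC and 0.022% for VPA+RW against MC+RW in adult cortex.

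H1f2 varied among the adult arrays. In hippocampus it was read at 1202, 1218 and 1133 in MC, 1313, 1406 and 1847 in MC+RW, 1538, 1549 and 1328 in VPA and 1728, 2878 and 1304 in VPA+RW. The MC arrays were below all arrays of the other 3 groups; between MC and VPA 16.9% of all genes did not overlap, and between MC and MC+RW 12.8%. In cortex it was read at 1132, 1036 and 935 in MC, 1129, 1567 and 1302 in MC+RW, 1382, 1105 and 1169 in VPA and 1433, 2293 and 1198 in VPA+RW. There every VPA+RW array lay above every MC array, a pair that was not tested, and the other pairs of groups overlapped. The 4 running differences were 0.35, 0.35, 0.36 and 0.38, with limma adjusted p from 0.416 to 0.806 and intervals that began at -0.11 or above. The VPA differences in sedentary mice were 0.31 in hippocampus (95% interval -0.14 to 0.76) and 0.23 in cortex (95% interval -0.17 to 0.64).

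VPA+RW replicate 2 had the highest H1f2 signal of the adult arrays in either tissue, in the second probe set too, at 1894 in hippocampus and 1418 in cortex. Without it the running difference in VPA offspring was 0.03 in hippocampus and 0.11 in cortex, and the difference between VPA+RW and MC+RW was -0.00 and -0.01. The labels do not say whether hippocampus and cortex of the same replicate number came from 1 mouse. At P84, H1f2 ran from 1063 to 1275 in MC and from 1085 to 1485 in VPA, which overlapped (0.13, 95% interval -0.07 to 0.33, limma adjusted p = 0.902).

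**Figure D3:**
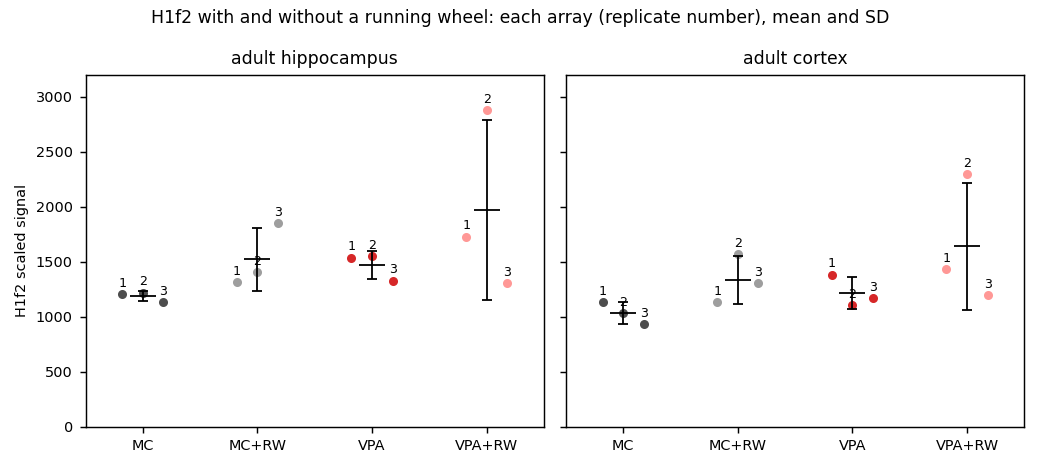
H1f2 scaled signal (vertical axis from 0) in adult hippocampus and cortex of MC and VPA offspring without and with a running wheel. Points are arrays with their replicate number, and bars give the mean and SD of 3. VPA+RW replicate 2 stands at 2878 in hippocampus and 2293 in cortex, above all other arrays of its tissue.

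Macroh2a2 in runners lay in opposite directions in the adult tissues. In hippocampus it was read at 398, 429 and 321 in MC+RW and 304, 299 and 316 in VPA+RW, lower without overlap (-0.31, limma adjusted p = 1.00), as 9.42% of all genes did not overlap. In cortex it was read at 408, 356 and 434 in MC+RW and 570, 448 and 536 in VPA+RW, higher without overlap (0.37, limma adjusted p = 0.391), as 15.3% of all genes did not overlap. The VPA difference of runners in hippocampus minus that in cortex was -0.68 (95% interval -1.09 to -0.28), which did not pass over all genes (limma adjusted p = 0.617). In sedentary mice the Macroh2a2 difference was -0.22 in hippocampus and 0.05 in cortex. In cortex the MC+RW arrays also lay below the MC arrays, 451, 473 and 623 (-0.36, 95% interval -0.64 to -0.08, limma adjusted p = 0.268), where 17.8% of all genes did not overlap.

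H2ax differed by -0.07 to 0.08 in the 9 comparisons. H2az1 was 3930, 3743 and 4233 in MC and 4160, 4568 and 4744 in VPA cortex, which overlapped (0.18, limma adjusted p = 0.427). Macroh2a1 at P84 was 1655, 1788, 1693 and 1856 in MC and 1838, 2082, 1838 and 2147 in VPA, which overlapped (0.17, limma adjusted p = 0.902). H1f10 in adult cortex was 645, 621 and 604 in MC+RW and 708, 764 and 739 in VPA+RW, higher without overlap (0.24, 95% interval -0.04 to 0.53, limma adjusted p = 0.586), as 15.3% of all genes did not overlap. In hippocampus MC+RW differed from MC by -0.22 (limma adjusted p = 0.757), with overlap. At P84 H1f10 ran from 608 to 780 in MC and from 724 to 768 in VPA (0.07, limma adjusted p = 0.936). Whether VPA altered the running difference was tested as an interaction in each tissue. By limma 0 of 6 members passed in hippocampus or cortex, where 0% of all genes passed. At an unadjusted p under 0.05 were 0 members in either, beside 615 of 13466 genes in hippocampus and 848 of 13606 in cortex.

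The vehicle arrays were also compared across ages. The E14.5 MC arrays are among those whose values chose the genes, so the members are described without a test between E14.5 and E18.5. From E14.5 telencephalon to E18.5 forebrain of MC mice, H2ax went from 8424 ± 71.0 to 3396 ± 112 (SD, n = 3 each), a log2 difference of -1.31. H1f10 differed by -1.02, Macroh2a1 by -0.75 and H2az1 by -0.73, while H1f2 (-0.02) and Macroh2a2 (-0.03) were nearly level. The second H2az1 probe set differed by -0.19, less than the set used. These values depend on the scaling: without it the median difference of all genes was 0.41 in place of 0.05, and the members differed by -0.88 (H2ax), -0.59 (H1f10), -0.31 (Macroh2a1), -0.30 (H2az1), 0.42 (H1f2) and 0.40 (Macroh2a2).

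From E18.5 forebrain to adult cortex of MC mice, 6 of 6 members fell, where 36.1% of all genes fell and 80.9% changed (limma, adjusted p under 0.05). Macroh2a2 moved furthest, from 2450 ± 162 to 516 ± 93.4 (SD, n = 3 each), and fell by 2.26 on the log2 scale (95% interval -2.52 to -2.00, limma adjusted p = 3.45e-12). H1f10 fell by 1.55, H2ax by 1.47, Macroh2a1 by 1.05, H2az1 by 0.88 and H1f2 by 0.41. The H1f2 call was lost without rescaling (-0.22, limma adjusted p = 0.254), and with the mean over its probe sets the difference was 0.31 (limma adjusted p = 0.205). The forebrain and cortex are not the same dissection, so age and region cannot be told apart here.

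In hippocampus, from E18.5 to the adult, 5 of 6 members fell, where 36.8% of all genes fell and 81.5% changed. Macroh2a2 fell by 2.49, H2ax by 1.62, H1f10 by 1.21, H2az1 by 1.04 and Macroh2a1 by 0.97, and H1f2 did not pass (0.19, 95% interval -0.05 to 0.43, limma adjusted p = 0.13). Without rescaling H1f2 was called as higher in adults (0.52, limma adjusted p = 0.00781), and 68.2% of all calls were higher, against 54.8%. At P84 the same E18.5 arrays served as the earlier group, and again 5 of 6 fell, where 37.7% of all genes fell and 82.8% changed; Macroh2a2 differed by -2.36, H2ax by -1.72 and H1f2 by 0.14. H1f2 was called as higher at P84 without rescaling (0.60, limma adjusted p = 0.00127), where 72.7% of all calls were higher, against 54.5%, and with the mean over probe sets (0.67, limma adjusted p = 0.00579). The proliferation sum was 31145 to 33668 in E18.5 hippocampus MC and 6334 to 6432 in adult hippocampus MC, and the oligodendrocyte marker sum was 2197 to 2895 and 28730 to 34254. Their part in the falls was not tested.

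H1f2 was the exception to these falls, and its probe sets disagreed with each other over age. The set used fell by 0.41 from E18.5 forebrain to adult cortex (limma adjusted p = 0.00302), but the second set was higher in adult cortex, 610 ± 34.7 against 480 ± 43.5 (SD, n = 3 each), a rise of 0.35 (adjusted p = 0.0367 over all probe sets, limma). The second set was higher by 0.81 in E18.5 forebrain than in E14.5 telencephalon, untested as above. It rose by 0.81 from E18.5 to adult hippocampus (adjusted p = 5.62e-05) and by 0.95 to P84 hippocampus (adjusted p = 3.41e-06), both by limma over all probe sets. No direction of H1f2 with age can therefore be given for the gene; both sets agree on its high signal with VPA at E14.5.

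**Figure D4:**
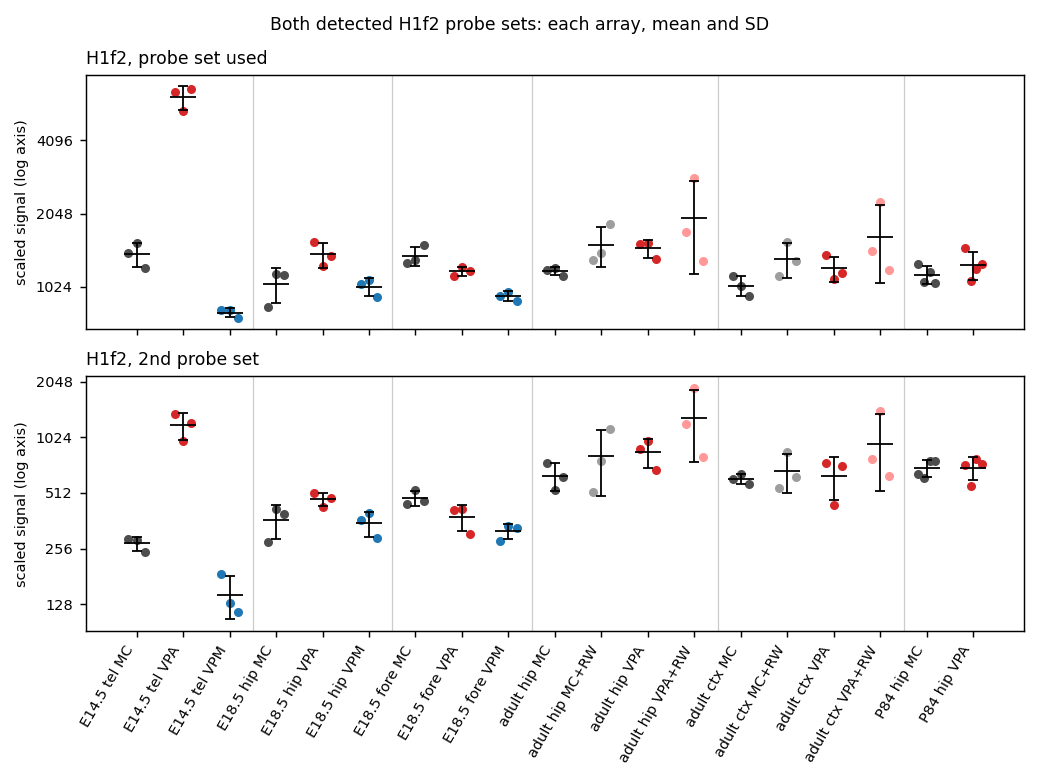
Scaled signal of the detected H1f2 probe sets (log axes) in the 19 groups, in order of age and region; tel, telencephalon; hip, hippocampus; fore, forebrain; ctx, cortex. Points are arrays and bars the mean and SD. In both panels E14.5 VPA stands above E14.5 MC and VPM, but from E14.5 MC to adult cortex MC the set used goes from 1392 to 1034 and the second set from 273 to 610.

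The regions differed less. Between E18.5 hippocampus and forebrain of MC mice, 1 of 6 members was called, where 10.8% of all genes were lower and 20.6% changed: H1f2 was lower in hippocampus by 0.40 (95% interval -0.64 to -0.16, limma adjusted p = 0.0171). The hippocampal arrays were 848, 1152 and 1143 and the forebrain arrays 1283, 1319 and 1515, without overlap. This call was lost without hippocampus replicate 1 (adjusted p = 0.119) or forebrain replicate 3 (adjusted p = 0.0906) and with the mean over probe sets (-0.21, limma adjusted p = 0.604), and without hippocampus replicate 2 it held and Macroh2a2 was called as well. Of all calls, 47.6% were higher in hippocampus, but 12.6% without rescaling. Between adult hippocampus and cortex, 3 of 6 members were called, where 16.4% of all genes changed (47.1% of the calls higher, or 34.4% without rescaling). Macroh2a2 was lower in hippocampus, 309, 380 and 353 against 451, 473 and 623 (-0.56, limma adjusted p = 0.0032). H2az1 was lower by 0.17 (limma adjusted p = 0.0377), and Macroh2a1 was higher by 0.25 (limma adjusted p = 0.0296) although its arrays overlapped. The Macroh2a2 call held without any 1 of the 6 arrays. Without rescaling the H2az1 (limma adjusted p = 0.43) and Macroh2a1 (limma adjusted p = 0.655) calls were lost. Both were also lost without the variance trend (limma adjusted p = 0.0769 and 0.0588) and with only the compared groups (0.146 and 0.157). With no filter the Macroh2a1 call was lost (limma adjusted p = 0.0504). The H2az1 call was lost without cortex replicate 1 (adjusted p = 0.0722) or 3 (0.173) or hippocampus replicate 1 (0.158) or 3 (0.0658), and the Macroh2a1 call without cortex replicate 1 (adjusted p = 0.0955) or 2 (0.154) or hippocampus replicate 2 (0.174). Without hippocampus replicate 1, H1f10 was called as higher in hippocampus (0.48, limma adjusted p = 0.00911).

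Genes that serve these histones went down with age as well (limma, adjusted p under 0.05). From E14.5 to E18.5 forebrain 23.9% of all genes fell and 54.1% changed, or 4.37% fell without rescaling, where 91.6% of the calls were higher in place of 55.8%. Over that interval 9 of 14 H2A.Z exchange genes fell and 0 rose, with Anp32e, the chaperone that removes H2A.Z, at -0.57 (adjusted p = 9.5e-09). From E18.5 forebrain to adult cortex 13 of 14 fell and 1 rose, where 36.1% of all genes fell. Over those intervals 9 of 10 replication chaperone genes fell each time, Nasp by 0.91 and then by 2.97. H2az2 fell by 1.22 and then by 2.08. Among 4 measured cluster histone genes, 2 fell to E18.5, whereas 3 rose and 1 fell to adult cortex, where H2bc18 rose by 2.19.

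Taking all treatments together, the scaled levels sorted by age in 4 of the genes. The share of all genes that sorted in this way is not given here. Among MC arrays, 7592 of 14046 genes were called between E14.5 telencephalon and E18.5 forebrain by limma. Between E18.5 forebrain and adult cortex 11362 were called. Without rescaling, the first of these MC differences was -0.30 for H2az1 and -0.31 for Macroh2a1, and the sorting is given with rescaling only. It is also given for the probe set used of each gene only. The second H2az1 probe set differed less over the first step in MC mice, as given above. Its E14.5 VPA and VPM means lay below its E14.5 MC mean, and whether that set sorted by age is not given here. The lowest of 9 E14.5 arrays exceeded the highest of 18 E18.5 arrays, and the lowest E18.5 array exceeded the highest of 32 adult and P84 arrays, for H1f10 (3256 over 2201, and 1733 over 1030), H2ax (6322 over 3764, and 3042 over 1269), H2az1 (10198 over 9185, and 6262 over 4744) and Macroh2a1 (5455 over 4376, and 3058 over 2406). Macroh2a2 separated at the last step, with adult arrays at 623 or lower and all earlier arrays at 1001 or higher. At E14.5 with VPA it ranked 9 of the 19 group means, below all 6 E18.5 groups and above all adult groups. H1f2 had no such order in the probe set used. Its highest group mean was E14.5 VPA at 6175 ± 683 and its lowest E14.5 VPM at 801 ± 32.3 (SD, n = 3 each), while the 17 groups between ran from 937 to 1970. This range belongs to that set. In the second H1f2 set an adult VPA+RW array of each tissue read higher than the E14.5 VPA mean.

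Neighbours in the order of group means were described for the members only. The same count over all genes is not given here, and steps between the E14.5 groups, whose values chose the genes, are included. Of the 18 neighbouring pairs of groups, the arrays did not overlap in 2 for H1f2, 4 for H1f10, 5 for H2ax, 4 for H2az1, 5 for Macroh2a1 and 1 for Macroh2a2. In H1f10 these steps were between E14.5 VPA, MC and VPM, from E14.5 VPM to the highest E18.5 group and from the lowest E18.5 group to the highest adult group. From the highest to the lowest group mean the ratio was 9.80 for H1f10, 8.91 for H2ax, 8.35 for Macroh2a2, 7.71 for H1f2, 3.64 for H2az1 and 3.57 for Macroh2a1, ratios within a probe set that are not levels to be ranked between genes.

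**Figure D5:**
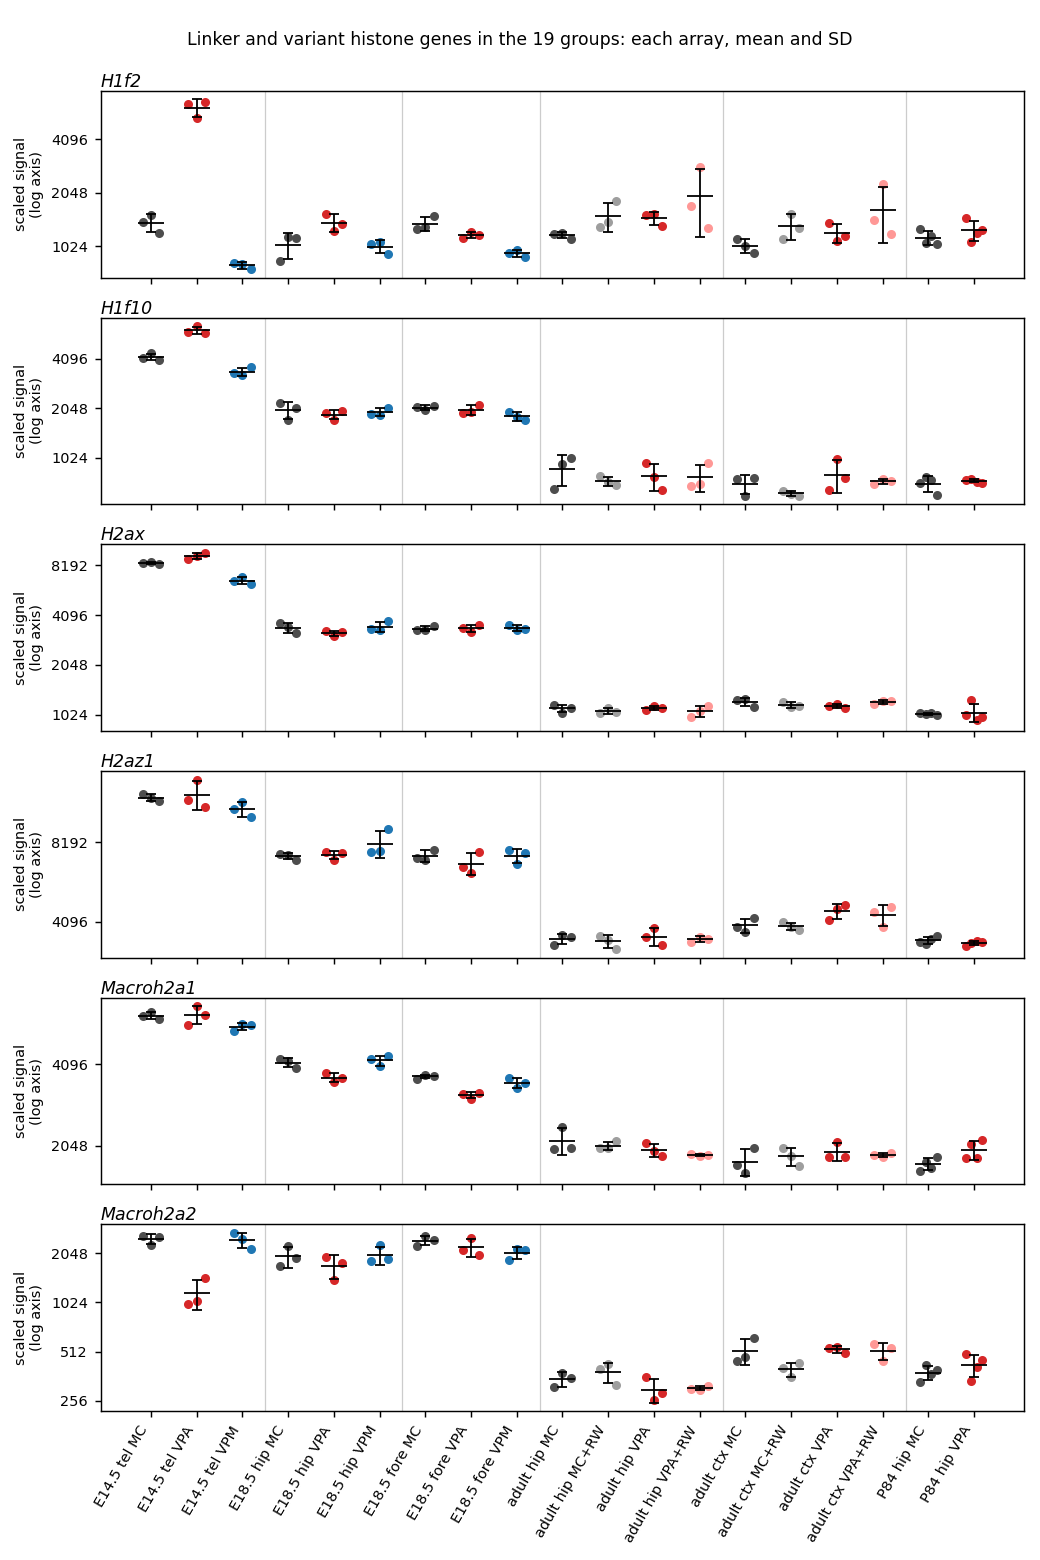
Scaled signal of the 6 genes (log axes) in the 19 groups; points are arrays and bars the mean and SD of 3 arrays, or of 4 at P84. Colours mark MC (dark grey), MC+RW (light grey), VPA (red), VPA+RW (pink) and VPM (blue). Each gene is shown by the probe set used, and the second sets of H1f2 and H2az1 are not shown. H1f10, H2ax, H2az1 and Macroh2a1 step down from E14.5 to E18.5 to adult. Macroh2a2 falls to 623 or lower in adults, and H1f2 is high in E14.5 VPA.

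The genes most like each member over the 19 group means (Pearson correlation of log2 values among 13601 genes) were ranked as a description; the groups share ages and regions. H1f2 was most like Rnf181 (0.87), Cndp2 (0.87) and Ptpn13 (0.86). H1f10 was most like Gart, Siva1 and Slbp (each 0.99), and H2ax like Ctnnbl1, Rrm1 and Slc25a13 (0.99 to 1.00). H2az1 was most like Anp32e (1.00), Kpna2 and Plk4 (each 0.99), Macroh2a1 like Rdx, Stk38 and Bub1 (0.99 to 1.00), and Macroh2a2 like Cul7, Dbndd1 and Wnk2 (each 0.99). Among the members, H1f10, H2ax, H2az1 and Macroh2a1 correlated at 0.97 to 0.99 with each other, Macroh2a2 at 0.84 to 0.90 with them, and H1f2 at -0.16 to 0.29 with the other 5.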

How the data were processed

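RNA of 59 samples was hybridised to Affymetrix Mouse 430 2.0 arrays. The deposited values are linear signal intensities, 1 per probe set, made by the authors with GCOS per the submitters' processing notes; the scaling they used is not given in the sources used here. Arrays were multiplied to a common 2% trimmed mean (500), signals below 32 were raised to 32, and log2 was taken. Genes came from the 34958 probe sets with 1 symbol (932 have several, 9211 none), each read from its brightest, with signal of at least 100 in 3 arrays (4 at P84). limma 3.58.1 in R 4.3.3 fitted 1 term per group with a variance trend, with Benjamini-Hochberg adjustment over all genes and a threshold of 0.05, in 24 comparisons and 8 tests of differences; it was tested on simulated data. The genes and lists were chosen with earlier results of these data known. Named list genes are up to 3 with the smallest adjusted p per comparison and list, with a few others chosen after their values were seen. The runner difference between adult tissues was added after the values were seen. Arrays were not treated as pairs in the main fits. In none of the 24 comparisons were all same-numbered correlations over 0.1. Single ones reached 0.38 (VPA and MC, E18.5 forebrain) and 0.30 (MC, adult hippocampus and cortex). Whether a replicate number marks a shared mouse or litter is not known. Sequences are from RefSeq.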

Additional observations from a re-analysis of the deposited data

Results flagged for a closer look

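H1f2 with VPA lay above MC in every array at E14.5 (log2 difference 2.15) and below MC in every array of E18.5 forebrain (-0.21). In E18.5 hippocampus (0.42) and in adult hippocampus (0.31) every VPA array lay above MC. H2az1 with VPM lay below MC in every E14.5 array (-0.15) and above MC in every array of E18.5 hippocampus (0.15). H2ax was higher with VPA than with VPM in every E14.5 array (0.49) and lower in every array of E18.5 hippocampus (-0.13). Each was set apart because all arrays of a group moved in opposite directions under the same contrast at different ages. The groups set against each other also differed in dissected tissue, so age and tissue cannot be told apart within such a pair. H1f2 with VPA also lay in opposite directions at a single age, in E18.5 hippocampus (0.42) and forebrain (-0.21). That regional difference did not pass, as given above. These differences between ages were not tested. The E14.5 values chose the genes.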

How the results depend on the processing

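The fits were repeated with log2 of signal plus 32, quantile normalization, no rescaling, no filter, a filter of 200, no variance trend, every probe set, the mean over probe sets, a replicate block, only the compared groups, and leaving out each array. Among values called under at least 1 setting the direction was reversed in 2: without rescaling H1f2 was higher in E18.5 forebrain than in E14.5 telencephalon of MC mice (0.42, where the median of all genes moved from 0.05 to 0.41; the cause was not tested beyond that), and with the mean over probe sets H1f2 was higher in adult cortex than E18.5 forebrain (0.31), since the second probe set goes the other way. For VPA against MC in E18.5 forebrain, 0 members were called without rescaling, no filter or no trend, and 0 to 1 without a replicate. For VPM against MC there it was 0 to 1 without a replicate. For E18.5 hippocampus against forebrain, 2 members were called without rescaling, 0 with the mean over probe sets, 2 with the replicate block, 3 with only the compared groups and 0 to 2 without a replicate. For adult hippocampus against cortex, 1 was called without rescaling, no trend or only the compared groups, and 1 to 3 without a replicate. Over all genes, calls ranged from 1476 to 5303 (2895 as reported) for E18.5 hippocampus against forebrain. They ranged from 946 to 4230 (2302) for adult hippocampus against cortex and from 0 to 3 (0) for VPM against MC in E18.5 forebrain. For both regional comparisons the lowest count was without rescaling and the highest with every probe set, which counts probe sets. The replicate block changed no other count of members called, and whether replicate numbers pair the arrays is not known. Counts over all genes ranged from 3980 to 10533 (5954 as reported) for VPA against MC at E14.5, from 457 to 1934 (1279) for VPM, from 4145 to 10767 (6032) for VPA against VPM, from 17 to 271 (248) for VPA and from 0 to 70 (61) for VPA against VPM in E18.5 forebrain, and from 0 to 133 (2) for running in adult cortex MC. With values as deposited, 43 and 40 genes were called for VPA against MC and VPM in E18.5 hippocampus and 29 at P84, where 0 were reported. The 3 arrays per group (4 at P84) limit the precision. Of 3330 values of single genes under an alternative, 3083 kept direction and call, 203 changed sign with no call or no test on either side, 27 lost a call, 10 gained a call and 5 untested E14.5 values moved by more than the spread between arrays. Without VPA+RW replicate 2, H1f2 in VPA+RW against MC+RW went from 0.31 to -0.00 in hippocampus and from 0.26 to -0.01 in cortex. The E14.5 difference of H1f2 between VPA and MC was 1.49 with the mean over its probe sets, the dimmest included, and that of H2az1 was -0.20 with the mean over its probe sets (0.03 as reported).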
